A study of Homo sapiens with 45 samples.

Results

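The BCL2 family comprises the proteins that decide whether the outer mitochondrial membrane stays intact, and 10 of its genes are described here across A375 cells, an established human melanoma line, in which single genes had been silenced with siRNA. The genes were taken by name, namely BCL2, BCL2L1, MCL1, BAX, BAK1, BID, BAD, BCL2L11, PMAIP1 and BBC3, out of 19775 genes named on the array. Of the 10, 9 had probe sets naming no other gene, 32 in all, and each gene was represented by its main probe set, the one with the highest mean over all 45 arrays. The only probe set listed for BBC3 (PUMA) also lists 2 microRNA genes, so BBC3 is not counted among the measured members and its signal is given as shared.

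Each of 39 arrays carried total RNA from 1 culture harvested 48 h after transfection with a targeting siRNA, so no targeting siRNA had a replicate. A further 3 arrays carried RNA from cells given control siRNA and 3 RNA from untreated cells, and no genotype or drug distinguished any group. The sample labels give 100 nM of siRNA with Oligofectamine, whereas the methods of the study give a lower final concentration. The transfections were done in 3 experimental batches with different sets of siRNAs, KD3 (7 arrays), KD1 (9 arrays) and KD2 (23 arrays), while the 6 arrays without a targeting siRNA are assigned to none. All cells are of 1 line, and every value is a bulk one, in which fewer expressing cells and less RNA per cell cannot be told apart.

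Members of the family act against one another at the mitochondrion. BCL2, BCL2L1 (encoding BCL-XL) and MCL1 are anti-apoptotic and hold the effectors BAX and BAK1 in check, and BAX and BAK1, once active, oligomerise and permeabilise the outer membrane, which releases cytochrome c and leads to caspase activation. The BH3-only proteins BID, BAD, BCL2L11 (BIM), PMAIP1 (NOXA) and BBC3 bind the anti-apoptotic proteins, and some of them also activate the effectors directly. NOXA binds chiefly MCL1, BIM is restrained by ERK signalling, and BAX, PMAIP1 and BBC3 are classical transcriptional targets of p53. In melanoma, MCL1 and BIM are the members best known to respond to the BRAF and MEK pathway.

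Values are log2 intensities, and a probe set with a median below 8.59 was taken as below noise. Array medians lay between 5.06 and 5.15. The mRNA of the target was below its batch median, and the lowest of its batch, in all 37 arrays whose target had a probe set of its own, with a median log2 deviation of -1.40 (range -2.27 to -0.65). The neural crest markers SOX10 (mean 10.97) and S100B (9.47) were above noise, as were MITF and AXL. S100A1 (7.76), of the same marker list, was below it, as were PMEL, MLANA and TYR, defining genes of pigmented melanocytes. All 8 measured markers of blood, endothelial and epithelial cells were below noise, with means between 3.42 and 6.58. Control siRNA array 3 and untreated array 3 were near copies of each other (100% of probe sets within 10% with the ratio taken one way and 95.4% the other way, with 62.0% the highest share elsewhere), and the comparison of these groups is also given without them.

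The promoters of PMAIP1 and BAX are shown because these genes had the largest batch difference and the widest spread among siRNAs of all members. They are RefSeq sequences of build GRCh38.p14, 5′ to 3′, from 250 bases before to 50 bases after the start of the gene. PMAIP1 lies at chr18:59899746-59900045 and BAX at chr19:48954625-48954924, both on the plus strand. Capitals mark the core of the cyclic AMP response element, TGACG or CGTCA on the other strand, in PMAIP1, and the E-box CACGTG, which reads the same on both strands, in BAX.
PMAIP1: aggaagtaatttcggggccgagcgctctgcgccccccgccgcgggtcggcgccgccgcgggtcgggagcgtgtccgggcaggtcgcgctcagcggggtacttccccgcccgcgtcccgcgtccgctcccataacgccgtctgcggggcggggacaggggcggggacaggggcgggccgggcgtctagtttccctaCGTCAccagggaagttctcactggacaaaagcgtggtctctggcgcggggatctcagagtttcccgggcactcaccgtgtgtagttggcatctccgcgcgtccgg
BAX: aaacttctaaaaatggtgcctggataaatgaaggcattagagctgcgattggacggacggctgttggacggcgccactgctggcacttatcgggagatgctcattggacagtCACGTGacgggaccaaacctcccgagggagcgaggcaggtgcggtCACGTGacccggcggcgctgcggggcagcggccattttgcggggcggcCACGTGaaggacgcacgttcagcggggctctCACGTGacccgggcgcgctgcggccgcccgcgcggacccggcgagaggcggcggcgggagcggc
The PMAIP1 window held 1 such core, with its first base at -55 from the start, and 24.6% of all 35116 promoter windows held at least 1. The BAX window held 4 E-boxes, at -138, -93, -45 and -14. At least 1 E-box was present in 7.26% of windows and 4 or more in 0.0142% (5 windows). The first E-box of BAX overlaps a core of the cyclic AMP response element. Neither motif was particular to its gene, since 5 of the 9 members with a window held the TGACG core (PMAIP1, BAX, BCL2, BCL2L1 and BAD) and 3 an E-box (BAX, BID and BBC3). The p53 decamer, searched by its name alone, was in 6.63% of windows and among the members only in that of BAK1, which says nothing of p53 binding elsewhere in BAX or PMAIP1. These matches describe the letters only, and no binding was measured.

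MCL1, the short-lived anti-apoptotic protein, had the brightest main probe set of the members, with a mean of 11.86 that lay at percentile 98.6 of all probe sets. PMAIP1 (mean 9.20) and BID (8.75) were the other members above noise. BCL2L1 (8.46), BAD (7.89), BAX (7.66), BCL2L11 (7.14), BAK1 (6.84) and BCL2 (5.93) were below it. Probe sets differ in how they bind, so these levels do not order the transcripts. Only 5 of the 32 probe sets were above noise, 3 of them those of MCL1, and the precision of the dim members is limited accordingly.

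**Figure D1:**
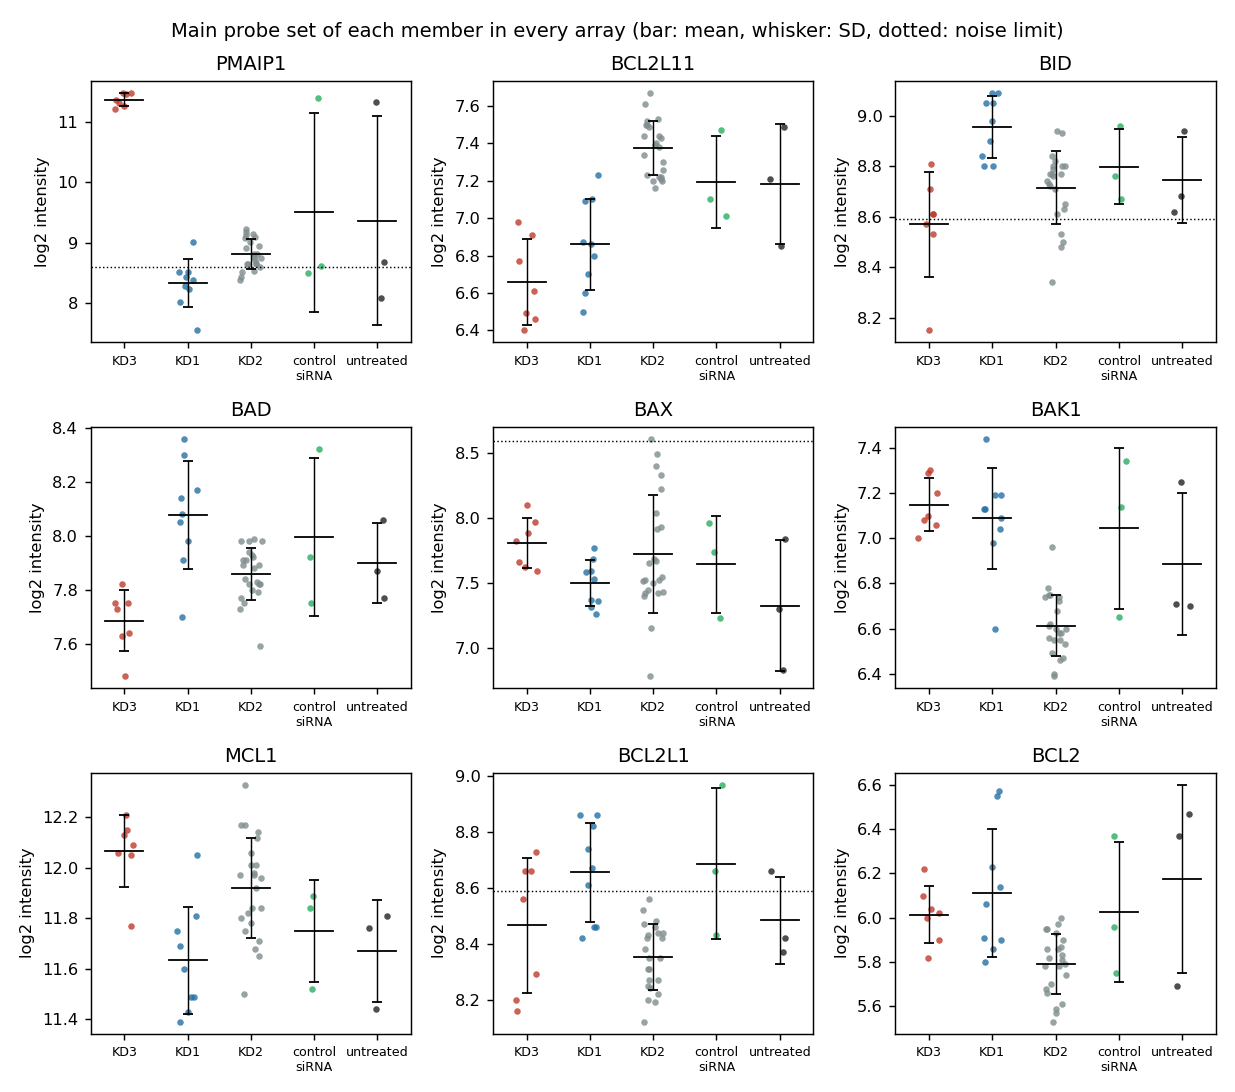
Log2 intensity of the main probe set of 9 members (1 panel each) in the KD3, KD1 and KD2 siRNA arrays and in the control siRNA and untreated arrays. Points are arrays, bars means, whiskers SD and the dotted line the noise limit where it falls within the panel. PMAIP1 lies at 11.21 to 11.48 in KD3, apart from the other siRNA arrays, and at 11.40 and 11.33 in control siRNA array 3 and untreated array 3.

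PMAIP1, which encodes the MCL1-binding BH3-only protein NOXA, was the member that differed most among batches. In KD3 its log2 values were 11.21 (CCNB2 siRNA), 11.27 (STAT3), 11.32 (ETS1), 11.36 (PIAS1), 11.46 (MITF), 11.48 (MCM2) and 11.48 (SP1). In KD1 they ran from 7.55 (TCEA1) through a median of 8.39 to 9.01 (RB1). In KD2 they ran from 8.38 through a median of 8.77 to 9.22, and the KD1 median was below the noise limit. Thus every KD3 array lay above every KD1 and KD2 array, whichever gene was silenced. PMAIP1 was the only 1 of the 9 main probe sets whose KD3 range lay apart from that of the other 32 siRNA arrays, a pattern shown by 10.3% of all probe sets. The difference was 2.56 ± 0.11 (SE) between KD3 and KD2, or 5.89-fold, with an adjusted p of 1.54e-23 (limma, Benjamini-Hochberg over all 54675 probe sets), and it ranked 62 among all probe sets by size of increase. Between KD3 and KD1 it was 3.04 ± 0.13 (8.22-fold, adjusted p = 8.48e-24), whereas PMAIP1 was slightly lower in KD1 than in KD2 (-0.48 ± 0.10, adjusted p = 1.20e-04). The second probe set of PMAIP1 differed by 2.62 between KD3 and KD2.

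A similar split was present within the small replicated groups. Control siRNA arrays 1, 2 and 3 had PMAIP1 at 8.50, 8.61 and 11.40, and untreated arrays 1, 2 and 3 at 8.08, 8.68 and 11.33. The near-copy pair was therefore the high one in both groups, and the other 4 arrays lay within the range of KD1 and KD2. Among p53 targets outside the family, 6 of 15 were higher and 7 lower in KD3 than in KD2 by the same test, against 19.8% and 22.0% of all probe sets. The largest of the increases were those of GDF15 (5.96), a stress-induced cytokine, SESN2 (2.60), a stress-induced inhibitor of mTORC1, and TNFRSF10B (1.12), the death receptor DR5. GDF15, SESN2, TNFRSF10B and PMAIP1 are also known as genes induced through ATF4 in the integrated stress response. ZMAT3, TP53I3 and TP53INP1 were lower (-0.66, -0.69 and -0.92), and CDKN1A, the p53-induced cell cycle inhibitor p21, differed by 0.32 (adjusted p = 0.124). Because each batch held its own siRNAs, batch and siRNA set cannot be told apart in any of these contrasts, and the p-values measure the spread among arrays of different siRNAs.

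Markers of cell state also differed among the batches. Of 8 melanocyte and neural crest markers, 4 were lower in KD3 than in KD2 (S100B -2.28, MITF -1.73, SOX10 -0.68 and TYR -0.19, median of the list -0.14) and 6 were lower in KD3 than in KD1 (median -0.87), with none higher in either contrast. Over all probe sets, 22.0% and 26.0% were lower in these contrasts and 19.8% and 22.1% higher. The summed linear intensity of these markers was 2853 to 3613 in KD3, 6988 to 7864 in KD1 and 4765 to 5920 in KD2, so that the 3 ranges did not overlap. For single probe sets, 10.3% had a KD3 range apart from that of the other 32 siRNA arrays, and no share was taken for sums. The sums weigh the brightest markers most, such as SOX10 (mean 10.97) and AXL (10.66), the latter listed as a marker of the dedifferentiated state. Of the 8 markers of blood, endothelial and epithelial cells, all below noise, 3 were lower in KD3 than in KD2 (KRT14 -2.10, KRT5 -0.35 and PECAM1 -0.27) and none higher, against the same 22.0% and 19.8%. Their sums were 191 to 223 in KD3, 312 to 494 in KD1 and 263 to 359 in KD2, so that KD3 lay apart here too. The part of all these markers in the batch differences of the members was not tested.

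The other members differed among batches by smaller amounts. Between KD3 and KD2, 3 of 9 main probe sets were higher (PMAIP1, BAK1 and BCL2), against 19.8% of all probe sets, and 2 of 9 lower (BCL2L11 and BAD), against 22.0%. Between KD1 and KD2, 5 were higher (BAK1, BCL2, BCL2L1, BID and BAD), against 22.5%, and 3 lower (PMAIP1, BCL2L11 and MCL1), against 22.0%. Between KD3 and KD1, 2 were higher (PMAIP1 and MCL1), against 22.1%, and 3 lower (BAD, BID and BCL2L1), against 26.0%. The median difference over the 9 members was 0.12, 0.22 and -0.10 in the 3 contrasts, beside -0.02, 0.01 and -0.04 over all probe sets.

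**Figure D2:**
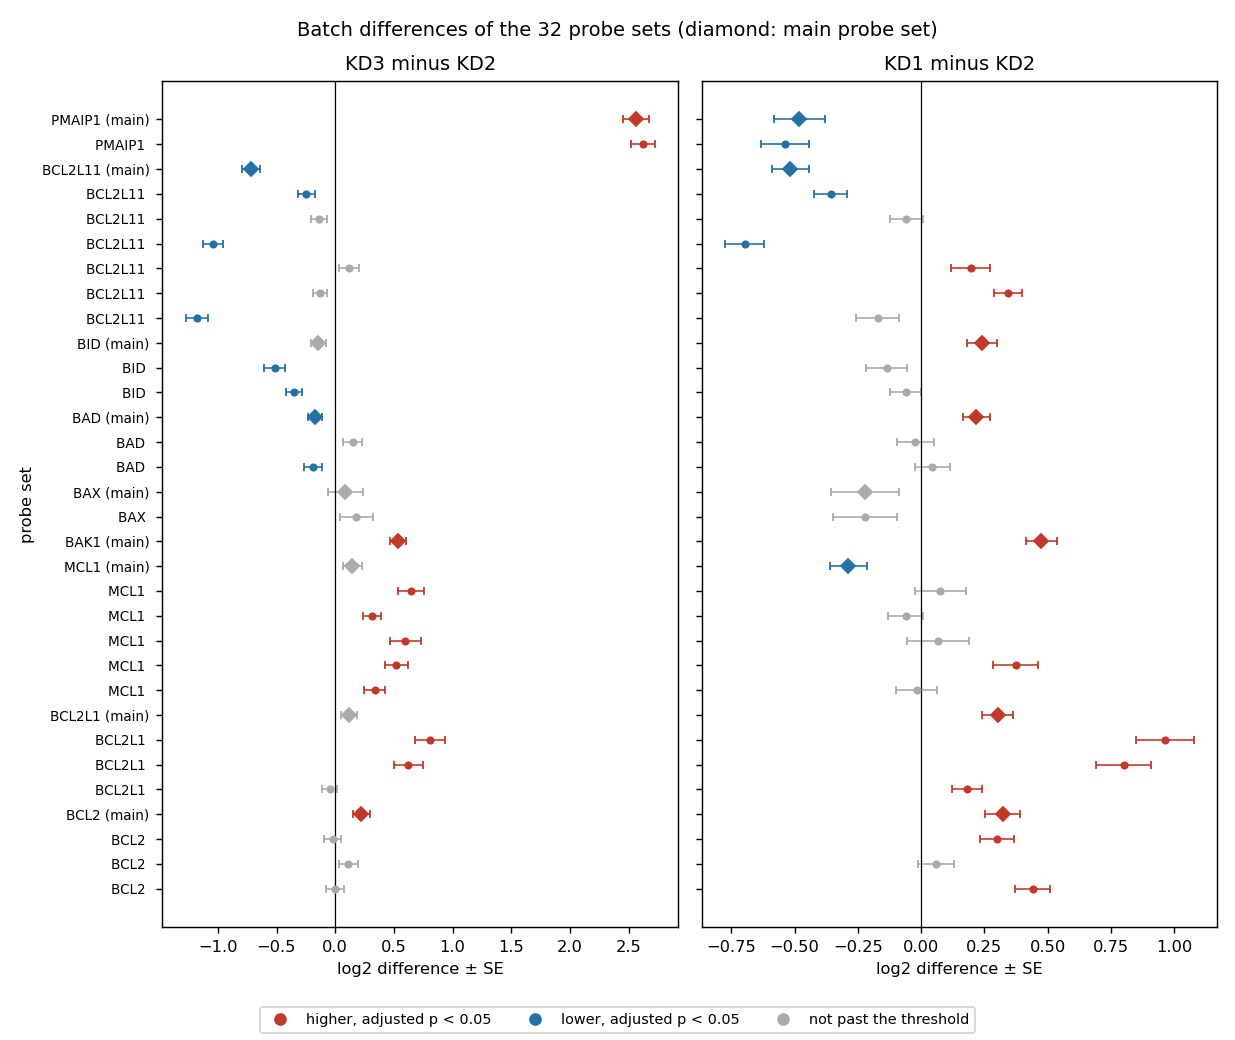
Log2 difference ± SE of each of the 32 probe sets between KD3 and KD2 (left) and between KD1 and KD2 (right), grouped by member, with diamonds for main probe sets and colours for direction at an adjusted p under 0.05 (limma). PMAIP1 stands at 2.56 and 2.62 on the left, and the probe sets of BCL2L11 and of MCL1 do not share 1 value.

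Among the effectors, BAK1 was higher in both smaller batches than in KD2. Its values ran from 7.0 through a median of 7.10 to 7.30 in KD3, from 6.60 through 7.13 to 7.44 in KD1 and from 6.39 through 6.60 to 6.96 in KD2, so that KD3 did not overlap KD2, as was the case for 3 of 9 members (PMAIP1, BAK1 and BCL2L11) and 13.5% of all probe sets. The differences were 0.54 ± 0.07 for KD3 and 0.48 ± 0.06 for KD1 against KD2 (adjusted p = 5.27e-09 and 1.64e-08). They rest on 1 probe set, which was below noise. The main probe set of BAX did not pass in any contrast (KD3 minus KD2, 0.09 ± 0.15, adjusted p = 0.689). Its second probe set was higher in KD3 than in KD1 (0.40 ± 0.16, adjusted p = 0.0365, against 0.31 and 0.141 for the main one) and did not pass in the other 2 contrasts.

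Among the BH3-only members, BCL2L11, encoding BIM, was lower in both batches than in KD2. Its main probe set lay at 6.40 to 6.98 in KD3 (median 6.61), 6.50 to 7.23 in KD1 (median 6.86) and 7.16 to 7.67 in KD2 (median 7.39), where all KD3 arrays were below all KD2 arrays. The differences were -0.72 ± 0.08 (adjusted p = 1.46e-10) and -0.52 ± 0.07 (6.84e-08). Of its 7 probe sets, 4 were lower in KD3 than in KD2, with -1.18 and -1.04 for the most distant, and the other 3 did not pass, 1 of them with the opposite sign (0.12). Between KD1 and KD2, 2 of the other probe sets were higher (0.20 and 0.34), so the fall in KD1 depended on the probe set.

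BAD, a BH3-only protein regulated by growth factor signalling, was lower in KD3 (median 7.73) than in KD1 (8.08) or KD2 (7.88). Its difference was -0.17 between KD3 and KD2 and -0.39 between KD3 and KD1 (adjusted p = 0.0131 and 3.68e-06), and the call was shared by 1 further probe set (-0.19 and -0.23, adjusted p = 0.0459 and 0.0296). The remaining 1 had the opposite sign in both (0.15 and 0.17) without passing. BID, the BH3-only protein cleaved by caspase-8, was lower in KD3 than in KD1 by -0.39 ± 0.08 (adjusted p = 4.45e-05). Against KD2 its main probe set in KD3 missed the threshold (-0.14, adjusted p = 0.078), whereas both its other probe sets passed it (-0.52 and -0.35). The signal shared by BBC3 and 2 microRNA genes was at -0.27 between KD3 and KD1 (adjusted p = 0.022) and at 0.13 between KD3 and KD2 (0.232).

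Among the anti-apoptotic members, MCL1 was higher in KD3 than in KD1 by 0.43 ± 0.09 (adjusted p = 1.44e-04). Its main probe set did not pass between KD3 and KD2 (0.15, adjusted p = 0.154), although all 5 of its other probe sets did, with differences of 0.32 to 0.64, so the call rested on the probe set chosen. BCL2L1 behaved in a like manner, with 0.12 (adjusted p = 0.182) for its main probe set and 0.81 and 0.62 for others that passed. BCL2 was higher in KD3 (median 6.02) and KD1 (6.06) than in KD2 (5.81), by 0.22 and 0.32 (adjusted p = 0.0149 and 1.62e-04), far below noise throughout. None of its other 3 probe sets passed between KD3 and KD2 (-0.021, 0.11 and -0.003), whereas 2 of them passed between KD1 and KD2 (0.30 and 0.44).

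Among 13 further BCL2 relatives, 5 were higher and 3 lower in KD3 than in KD2, against the same 19.8% and 22.0%. The higher ones were BIK (0.54), BCL2L2 (0.51), HRK (0.34), BCL2L12 (0.28) and BCL2L13 (0.12), and the lower ones were the mitophagy receptors BNIP3L (-0.77) and BNIP3 (-0.49) and the BH3-only gene BMF (-0.23). Of 15 measured genes of caspase activation downstream of mitochondria, 6 were higher and 6 lower, against these same shares. XIAP, an inhibitor of caspases, was higher by 0.61, and APAF1, the scaffold of the apoptosome, and CASP6, an executioner caspase, were lower (-0.64 and -0.70). These lists thus moved both ways, with medians of 0.03 and -0.06.

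Deviations of single siRNA arrays from their batch median addressed which knockdowns were accompanied by altered levels of the members. These have no replicate and no test, and a deviation of at least 1.5-fold was counted. Of 351 values (9 members in 39 arrays), 8 were past 1.5-fold (2.28%), 6 of them higher and 2 lower, against 0.629% over all genes and 0.386% over genes above noise. All 8 belonged to BAX or PMAIP1, and 1 was past 2-fold. Just inside the limit were PMAIP1 after RB1 siRNA (0.62) and BAX after MAP2K1 siRNA (0.68), and just outside it BAK1 after RB1 siRNA (-0.53), BCL2 after CTNNB1 siRNA (0.51) and BAX after CCNB1 siRNA (0.50).

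**Figure D3:**
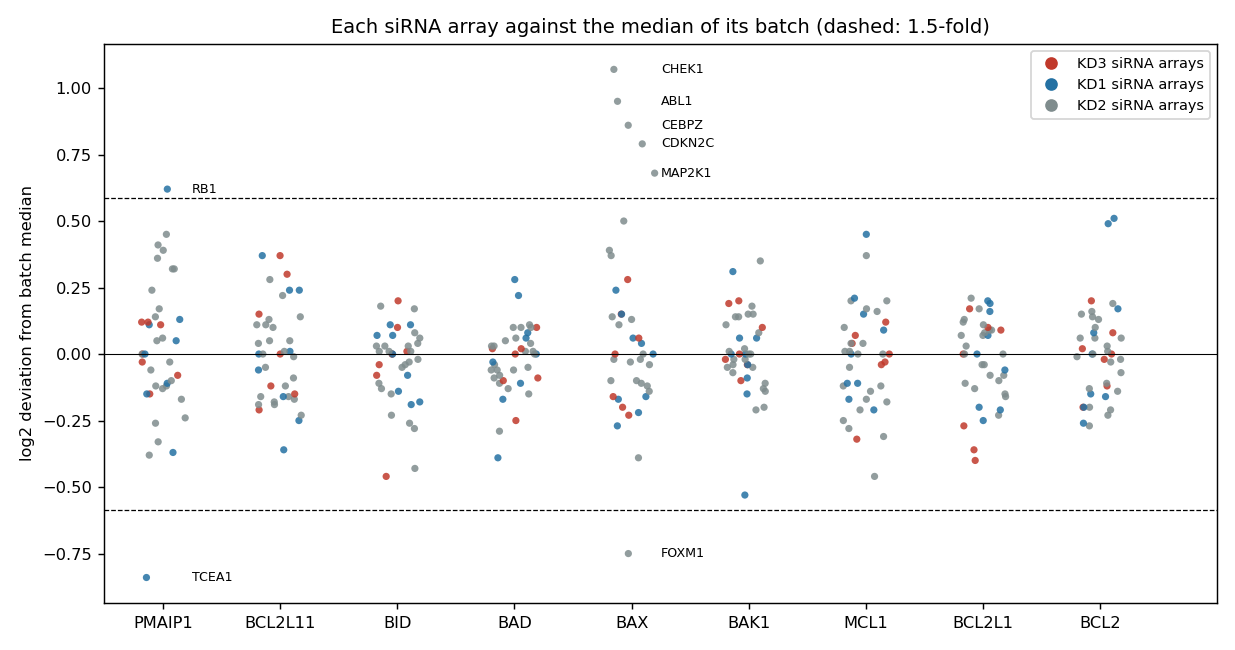
Log2 deviation of each of 39 siRNA arrays from the median of its batch (vertical axis) for the main probe set of 9 members, with points coloured by batch, dashed lines at 1.5-fold and the arrays past them named. BAX spreads between -0.75 (FOXM1 siRNA) and 1.07 (CHEK1 siRNA), and all arrays past the lines belong to BAX or PMAIP1.

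BAX, an effector of membrane permeabilisation, varied most among siRNAs. Its deviation had an SD of 0.38, at percentile 99.4 of all genes. In KD2 its values ran from 6.78 (FOXM1) through a median of 7.54 to 8.61 (CHEK1), and the 5 arrays of CHEK1, ABL1, CEBPZ, CDKN2C and MAP2K1 siRNA deviated by 1.07, 0.95, 0.86, 0.79 and 0.68. These 5 lay at 8.22 to 8.61, and no other siRNA array exceeded 8.10. Within-batch SDs were 0.19 in KD3, 0.18 in KD1 and 0.45 in KD2, so the spread was that of KD2. The second BAX probe set followed the first (Spearman's rho 0.84 over 39 batch-centred arrays) and had the same sign in all 6 of the KD2 arrays past 1.5-fold. Both probe sets had medians below noise, and only the CHEK1 array exceeded the limit.

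The genes silenced in these 5 arrays have different functions. CHEK1 encodes a kinase of the DNA damage checkpoint, ABL1 a tyrosine kinase, CEBPZ a CCAAT-binding factor, CDKN2C an inhibitor of CDK4 and CDK6, and MAP2K1 the ERK-activating kinase MEK1. Of these 5 arrays, CDKN1A was also high only in that of CHEK1 siRNA (2.08), and it was at -0.10, 0.00, 0.02 and -0.06 in the arrays of ABL1, CEBPZ, CDKN2C and MAP2K1 siRNA. Of 15 p53 targets outside the family, all 15 were above the batch median after CHEK1 siRNA (median 0.66), against 6 after ABL1 (-0.03), 3 after CEBPZ (-0.11), 8 after CDKN2C (0.02) and 7 after MAP2K1 siRNA (-0.01). After CCNA2 siRNA all 15 were above it (median 0.31), and BAX was at 0.37. After MITF siRNA, which silences a factor of the type that binds E-boxes, BAX was at 0.15.

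CDKN1A, a usual transcriptional readout of p53, was the covariate of a regression across the 39 arrays with batch as a term. No member passed (0 of 9 at an adjusted p under 0.05 in limma, 1 of 9 at an unadjusted p under 0.05), against 0.0402% of probe sets. Of 14 p53 targets outside the family, 5 rose with it, namely GDF15, FAS, SESN1, MDM2 and DDB2, but 1 did without the CHEK1 array and 0 without the 2 arrays farthest in CDKN1A. The BAX slope was 0.37 ± 0.13 per log2 unit of CDKN1A (unadjusted p = 0.00558, adjusted p = 1), and that of PMAIP1 0.11 ± 0.10 (adjusted p = 1). Pearson's r between BAX and CDKN1A was 0.432 and Spearman's rho 0.188 (permutation p within batches 0.0219 and 0.249, 100000 permutations), and r was 0.099 without the arrays of CHEK1 and CCNA2 siRNA, so the relation rested on those 2 arrays. Within batches rho was -0.32 in KD3, 0.13 in KD1 and 0.39 in KD2. For PMAIP1, r and rho were both 0.186 (permutation p = 0.239 and 0.269). Adjusted by Benjamini-Hochberg over these 4 permutation tests, p was 0.0876 for the r of BAX and 0.269 for the other 3.

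**Figure D4:**
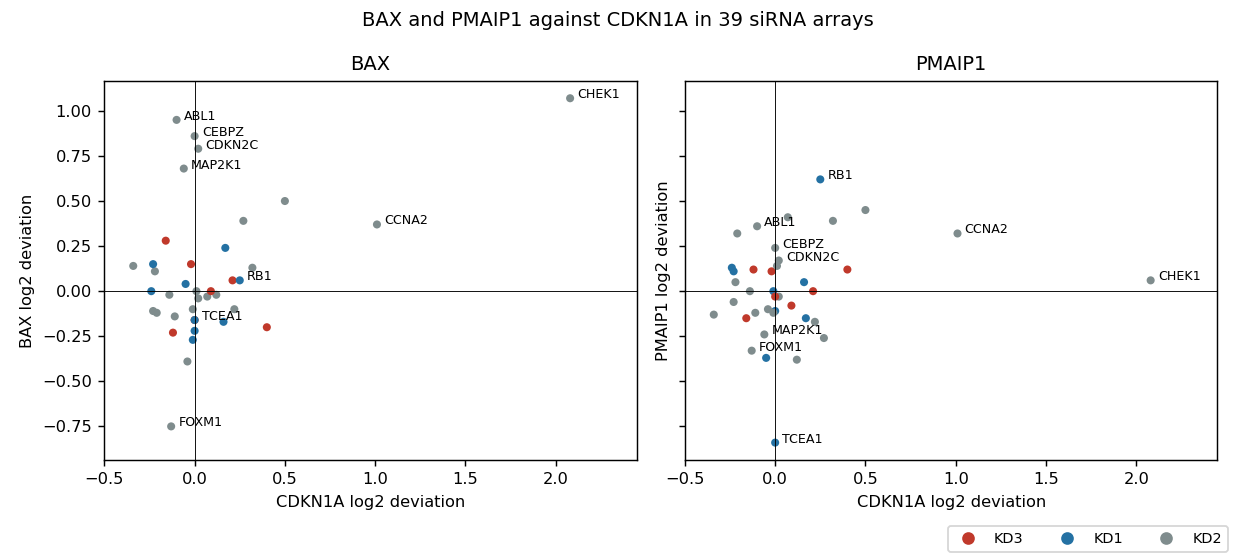
Log2 deviation of BAX (left) and PMAIP1 (right) from the batch median on the vertical axis against that of CDKN1A on the horizontal axis, 1 point for each of 39 siRNA arrays, coloured by batch. CHEK1 siRNA stands alone at 2.08 for CDKN1A, with BAX at 1.07 and PMAIP1 at 0.06, while ABL1, CEBPZ, CDKN2C and MAP2K1 siRNA combine high BAX with CDKN1A near 0.

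PMAIP1 had the other 2 deviations past 1.5-fold, both in KD1. After RB1 siRNA it was at 9.01, the highest of KD1 (deviation 0.62), and after TCEA1 siRNA at 7.55, the lowest (-0.84). RB1 encodes the retinoblastoma protein, which restrains E2F factors, and PMAIP1 and BCL2L11 are among the genes through which E2F1 is known to act. TCEA1 encodes a transcription elongation factor. The second probe set was at 0.52 after RB1 siRNA but at -0.09 after TCEA1 siRNA, so the low value after TCEA1 siRNA was seen with 1 of the 2 probe sets. After CHEK1 siRNA PMAIP1 was at 0.06, rank 10 of 23 in its batch.

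The highest and lowest arrays of the remaining members stayed within 1.5-fold. MCL1 was lowest after MAP2K1 siRNA (11.50, deviation -0.46) and highest after CDC25B siRNA (0.45), a phosphatase that activates CDKs. After CDC25B siRNA its other probe sets ran from -0.27 to 0.44. After MAP2K1 siRNA 4 of the other 5 MCL1 probe sets were also below the batch median (-0.16 to -0.67), and the remaining 1 was at 0.02. None of these 5 was the lowest of KD2 there (ranks 2 to 13 of 23 from the lowest). BID was lowest after SP1 siRNA (8.15, deviation -0.46) with all 3 of its probe sets the lowest of KD3, and highest after MCM2 siRNA (0.20), where all 3 were the highest. BCL2L1 was lowest after ETS1 siRNA (-0.40), where its other probe sets were at -0.42, -0.31 and 0.24, and highest after FOXM1 siRNA (0.21). BAK1 and BAD were both lowest after RB1 siRNA (-0.53 and -0.39), all 3 BAD probe sets being the lowest of KD1, and they were highest after FOXM1 (0.35) and PCNA siRNA (0.28). The other BAD probe sets were at 0.38 and -0.11 after PCNA siRNA. BCL2L11 was lowest after TCEA1 (-0.36) and highest after CDK7 siRNA (0.37), and BCL2 lowest after CDKN2C (-0.27) and highest after CTNNB1 siRNA (0.51), but in these 2 dim genes the other probe sets did not share the order.

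FOXM1 siRNA, which silences a mitotic transcription factor, gave divergent values within 1 gene. The main probe set of BCL2L1 was at 0.21 in that array, while its other probe sets were at -0.74, -0.81 and -0.09, the first 2 being the lowest of 23. One MCL1 probe set was at -0.70 there, against 0.01 for the main one. Over the 23 probe sets other than the main ones, 20 of 897 values were past 1.5-fold (2.23%), 6 of them higher, and 4 came from the FOXM1 array. The largest was that of an MCL1 probe set after NMI siRNA (-1.04), where the main one was at -0.12.

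Several silenced genes encode regulators with a textbook link to a member, and 14 such pairs could be read. Of these 14, 2 were past 1.5-fold, BAX after CHEK1 siRNA and PMAIP1 after RB1 siRNA, against 2.28% of all values of the members and 0.629% over all genes. A further count, with no share over all genes taken for it, was 9 pairs within 1 SD of the batch. BCL2, a known target of MITF, was at -0.20 after MITF siRNA, the lowest of 7, although MITF itself was at -1.80. Its other probe sets did not follow (0.00 to 0.25). After STAT3 siRNA, with STAT3 at -2.04, BCL2L1 was at 0.10, MCL1 at -0.03 and BCL2 at 0.08. The other BCL2L1 probe sets were at 0.73, 0.44 and -0.17 in that array, the first past 1.5-fold. After RELA siRNA BCL2L1 was at 0.09 and BCL2 at 0.06. BCL2L11, which FOXO3 induces and AKT and ERK signalling restrain, was at 0.00 after FOXO3A, -0.01 after AKT1, -0.18 after PIK3CB, -0.16 after MAP2K1 and 0.01 after RB1 siRNA. Its other probe sets, all below noise, differed in sign. They included 0.49 and -0.40 after FOXO3A, 0.56 and -0.32 after AKT1, and 0.41 and -0.30 after RB1 siRNA. Opposite to the main probe set, single ones were at 0.34 after PIK3CB and 0.37 after MAP2K1 siRNA. On the main probe sets none of these BCL2, BCL2L1, MCL1 and BCL2L11 values reached 1.5-fold, and with 1 array each no interval can be given.

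BCL2A1, an anti-apoptotic relative and a known MITF target in melanoma, had the widest range among the 13 further relatives. It was lowest after MITF siRNA (-0.89) and highest after PIK3CB siRNA (2.78), with a mean of 4.80 that was far below noise.

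Across the 39 batch-centred arrays the members did not move as a block. Over their 36 pairs Spearman's rho ran from -0.42 to 0.30 with a median of -0.04, and no pair reached 0.5 in size. Probe sets of the same gene were closer in BAX (0.84), BID (0.57 to 0.74) and PMAIP1 (0.61) than in BCL2 (-0.32 to 0.23) and BCL2L11 (-0.40 to 0.45). Among 4799 other genes above noise, MCL1 was most like DUSP6 (rho 0.74), the ERK phosphatase that ERK signalling induces, PMAIP1 most like EIF5 (0.71), a translation initiation factor, and BID most like NIT2 (0.63), an amidase. DUSP6, like the main probe set of MCL1 but none of its others, was lowest after MAP2K1 siRNA (-0.40). These are the highest of many correlations among arrays that share a platform and batches, and are given as a description.

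Control siRNA and untreated cells were compared as the only replicated groups. None of the 9 members passed (0 at an adjusted p under 0.05 in limma, 0 at an unadjusted p under 0.05), against 0.0% of probe sets. BAX differed most, with 7.74, 7.23 and 7.96 in control siRNA arrays and 7.30, 6.83 and 7.84 in untreated arrays, which overlap (0.32 ± 0.30, adjusted p = 1). With same-numbered arrays taken as pairs, which the labels do not state, BAX was higher in control siRNA in 3 of 3 (0.44, 0.40 and 0.12). With the pair as a block its difference was 0.32 ± 0.11 in limma (unadjusted p = 0.0183, adjusted p = 0.874), 1 of 9 members was then at an unadjusted p under 0.05, and the second BAX probe set differed by 0.04. PMAIP1 differed by 0.14 ± 1.05, its SE being set by the high pair. Without that pair BAX differed by 0.42 and PMAIP1 by 0.18, and 0 of 9 members passed. The main PMAIP1 probe set was at 0.42 and -0.07 in pairs 1 and 2, and its second probe set at -0.47 and 0.05. MCL1 was at 11.52, 11.84 and 11.89 in control siRNA arrays, against 11.44, 11.81 and 11.76 in untreated arrays.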

How the data were processed

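RNA of A375 cells was hybridised to Affymetrix U133 plus 2.0 arrays, and the authors normalised the arrays with RMA (R affy package, version not stated). The deposited intensities are linear (5.54 to 32065, 54675 probe sets), and log2 was taken here without further normalisation. Groups came from the sample labels and batches from the table of siRNAs in the study. Probe sets were named by the platform table, in which 41097 had 1 gene, 1801 several and 11777 none. Noise was set at 1.5-fold the median signal of the BioB spike-in probe set at its 3′ end, or 384.8. Some genes of the comparison lists were not analysed here.

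The 3 batches, the slope on CDKN1A and control siRNA against untreated were each fitted with limma 3.58.1 in R 4.3.3 over all probe sets (for the slope, over 54674 of them), with Benjamini-Hochberg adjustment and a threshold of 0.05. Of 200 probe sets given a log2 change of 1 in simulated data, 200 were recovered for KD3 minus KD2 (14 others called), 200 for the slope (8 others) and 180 for control siRNA minus untreated (9 others). The slope was simulated as 1 per unit of a covariate with an SD of 1, whereas CDKN1A deviations had an SD of 0.41. The simulated spread was that of siRNA arrays within batches, also for control siRNA minus untreated. The recoveries for these 2 fits therefore do not measure their power in the real data. For KD3 minus KD2, the planted change of 1 was larger than the difference of every main probe set except that of PMAIP1. Its recovery does not measure the power for such smaller differences. The batch median was subtracted for single arrays, as the authors scaled each probe set. Same-numbered control siRNA and untreated arrays deviated together (r of 0.580, 0.671 and 0.890), and their numbers were taken to pair them. Differently numbered arrays were not compared, and the near-copy arrays 3 shift the group means from which all deviations were taken. These r therefore cannot decide whether arrays 1 and 2 are paired by number. Nothing states whether these arrays came from separate cultures, so their spread may be technical. All 10 members were named, other lists by the genes past the test, and for members above noise the gene with the highest rho. Members and lists were chosen with earlier results of these data known. The number of arrays limits the precision. Python 3.11.15, numpy 2.4.6, pandas 2.3.3, scipy 1.17.1 and matplotlib 3.10.9 were used for the rest.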

Additional observations from a re-analysis of the deposited data

Results flagged for a closer look

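Of 18 combinations of a member and a batch of 7 or 9 siRNA arrays, 2 held an array whose gap to its nearest neighbour was large for the range of the batch. MCL1 in KD3 was at 11.77 after CCNB2 siRNA, with the next array at 12.05 (gap over range 0.639). BID in KD3 was at 8.15 after SP1 siRNA, with the next at 8.53 (0.569). Chance singles out about 1 in 20 such combinations.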

How the results depend on the processing

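Counts of members past the threshold stayed within 1.5 times under another normalisation, centring, model of the spread or without the arrays of CHEK1, MITF and PIK3CB siRNA. Restricting the fit to probe sets above noise left 3 members to test, of which 2 passed between KD3 and KD2, 3 between KD1 and KD2 and 3 between KD3 and KD1. No alternative brought a member past the threshold in the slope on CDKN1A, although the calls over all probe sets numbered 22, against 1 without the CHEK1 array and 0 without the 2 arrays farthest in CDKN1A. With the replicate number as a block, 0 of 9 members passed between control siRNA and untreated, and 0 also passed when any 1 replicate was left out (range 0 to 0). PMAIP1 then ranged from -0.003 to 0.246 there. The block changed no call at an adjusted p under 0.05.

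The number of deviations past 1.5-fold was 25 against the median of all 39 arrays and 43 when set against mean control siRNA values, in place of 8. Of those 8 against the batch median, 1 was past 2-fold. Against control siRNA arrays 1 and 2 alone, a setting chosen after seeing the data, it was 29. These references cross batches. Against the mean of all 3 control siRNA arrays, PMAIP1 after RB1 siRNA (9.01) was at -0.49. Control siRNA array 3 (11.40) raised that mean, and arrays 1 and 2 stood at 8.50 and 8.61. Other probe sets of a member turned its direction in several contrasts, and the cause was not tested. Between KD3 and KD2 these were BCL2L11 (0.12), BAD (0.15), BCL2L1 (-0.047) and BCL2 (-0.021 and -0.003). Between KD1 and KD2 they were BCL2L11 (0.20 and 0.34), BID (-0.14 and -0.061), MCL1 (0.37, 0.076 and 0.067) and BAD (-0.023), and between KD3 and KD1 BAD (0.17). BCL2L1 between KD3 and KD1 no longer passed after a second quantile normalisation (adjusted p = 0.0622). The directions of PMAIP1 and BAK1 against KD2 did not turn under the alternatives run. BAK1 has 1 probe set, below noise, so other probe sets and the fit above noise could not be tried for it. Over single members and all alternatives, 219 values kept their direction and side of the threshold or stayed within the spread of the batch, 13 lost the threshold, 8 gained it, 16 changed sign and 43 deviations moved by more than that spread. This tally leaves out BID between KD3 and KD2. There BID was called lower after a second quantile normalisation, among probe sets above noise and with both its other probe sets. The signal over the noise limit bounds what can be said of the dim members.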
